A study of Mus musculus with 24 samples.

Results

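The change that antisense oligonucleotides against Dnm3os made to the response of the mouse lung to bleomycin was taken from all 24 of the 24 samples, grouped by their titles. For each gene, the difference between bleomycin and PBS mice that received either Dnm3os gapmer was set against the same difference in mice that received a control gapmer. All samples were whole lungs of C57BL/6 mice aged 9 to 12 weeks, and their total RNA was hybridised with Cy3 label to one-colour Agilent arrays. The groups were bleomycin with gapmer DNM3OS-1 (5 samples), bleomycin with gapmer DNM3OS-3 (5), bleomycin with the control gapmer (5), PBS with gapmer DNM3OS-1 (3), PBS with gapmer DNM3OS-3 (3) and PBS with the control gapmer (3). Here the first oligonucleotide is called gapmer 1 and the other gapmer 3, and together they form 10 bleomycin and 6 PBS arrays. The labels number the samples within a group without naming animals, so each p-value measures the spread between samples. Dose, route, time after bleomycin and sex were not stated in the labels.

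A gapmer is an antisense oligonucleotide with a DNA core that directs RNase H to cut the RNA it pairs with. Dnm3os is a long noncoding RNA transcribed from the strand opposite to Dnm3, and it is processed into microRNAs that act in mesenchymal cells. Bleomycin breaks DNA, injures the alveolar epithelium, draws in macrophages and lymphocytes and leads to scar formation by fibroblasts. Repair after such injury can bring keratin-expressing basal-like and transitional epithelial cells into the alveolar region.

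Values are log2 intensities, and 1 feature, the brightest on average, stands for each of 20728 genes. A response is the bleomycin minus PBS difference, and the change in response is the response with both gapmers minus that with the control gapmer, so a negative value means a lower response with the gapmers. The same number equals the gapmer minus control difference in bleomycin mice minus that in PBS mice. A gene was called where its limma p, adjusted over all genes by the Benjamini-Hochberg method, was under 0.05. Its change lay mainly in the bleomycin groups where their difference made up at least 66.7% of it, mainly in the PBS groups where it made up at most 33.3%, and was split between them otherwise. Levels under 6.11, the 25th percentile of gene means, were taken as too dim to resolve a fold, so the size of a change that rests on such levels is not exact.

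The arrays held strong lung markers, with Sftpc of alveolar type 2 cells and Scgb1a1 of airway club cells near the top of the scale in every group (means of 17.94 to 18.03 and 17.96 to 18.08). Tissue other than lung parenchyma varied between samples. The mean level of 15 adipose genes ran from 10.64 to 12.11 on bleomycin gapmer arrays and from 10.95 to 11.42 in bleomycin controls, and from 10.71 to 12.31 on PBS gapmer arrays and from 11.99 to 12.73 in PBS controls. The 17 skeletal muscle genes averaged between 8.25 and 12.28 on bleomycin gapmer arrays and between 7.31 and 12.09 on PBS gapmer arrays, against 9.97 to 10.18 in bleomycin controls and 11.14 to 12.22 in PBS controls. Squamous epithelial genes averaged 6.72 to 9.74 on PBS gapmer arrays and 6.66 to 8.36 in PBS controls. The thymus list stood at 8.58 in bleomycin control replicate 3 and between 7.0 and 7.06 in the other bleomycin controls. These levels are given again beside the results they move with.

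**Figure D1:**
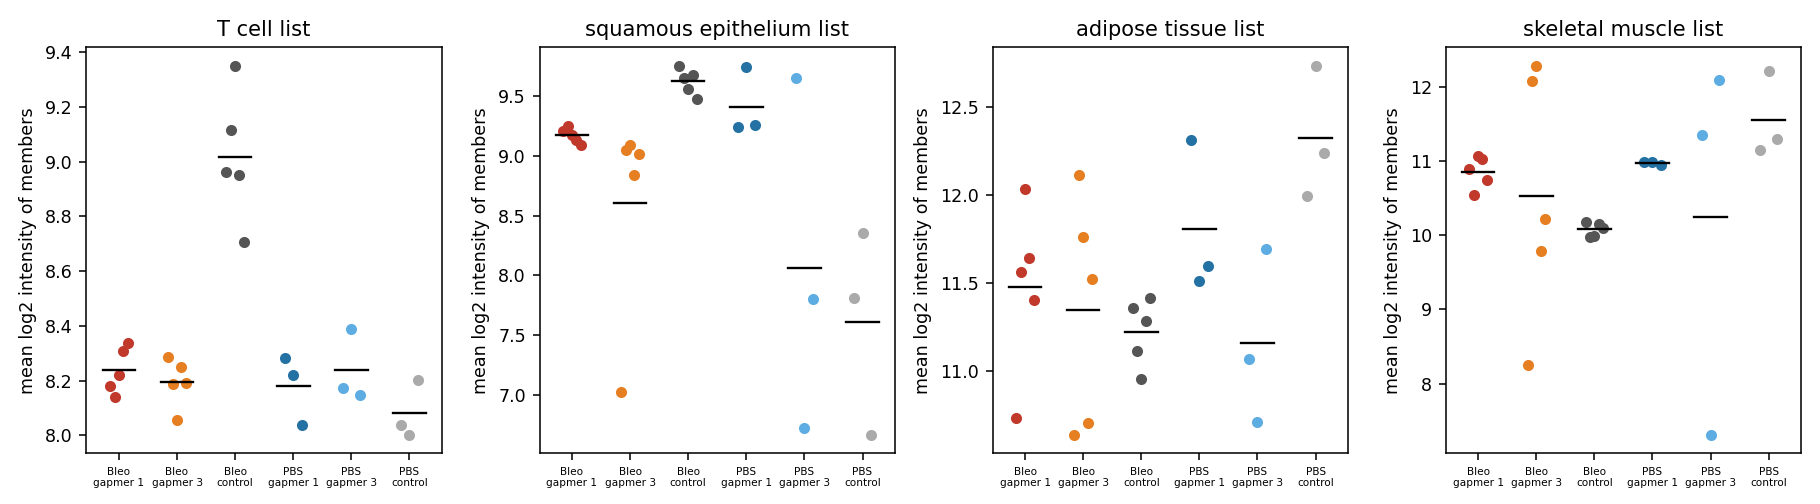
Mean log2 intensity (y axis) of the measured members of 4 gene lists on each array, by group (x axis), with a bar at the group mean. T cell genes stand between 8.71 and 9.35 in the 5 bleomycin controls and no higher than 8.39 elsewhere, adipose genes stand between 11.99 and 12.73 in PBS controls, and skeletal muscle genes are spread widely in the gapmer 3 groups.

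Dnm3os itself was lower with the gapmers in both sets of mice. Its brightest feature read 5.99 to 6.78 on the 10 bleomycin gapmer arrays (median 6.26), against 6.84, 7.03, 6.64, 7.05 and 6.93 in bleomycin controls. In PBS mice it read 5.76 to 6.22 on the 6 gapmer arrays (median 6.00), against 6.37, 6.27 and 6.39 in controls. The groups overlapped in 1 of the 10 bleomycin gapmer arrays and not at all in PBS mice. The mean was 6.29 ± 0.23 with gapmers and 6.90 ± 0.17 with control in bleomycin mice (SD, n = 10 and 5, two-sided exact permutation p = 0.00133, 0.00799 adjusted over 6 tests), and 5.99 ± 0.17 against 6.34 ± 0.06 in PBS mice (SD, n = 6 and 3, two-sided exact permutation p = 0.0238, 0.0476 adjusted). The PBS gapmer level lay under 6.11, so the size of that difference is not exact. A dimmer feature differed by -0.25 in bleomycin mice (exact permutation p = 0.00733, 0.022 adjusted) and by -0.08 in PBS mice (exact permutation p = 0.548), and the dimmest by -0.05 in either (exact permutation p = 0.422 and 0.595). The change in response of Dnm3os was -0.26 (SE 0.15, limma adjusted p = 0.308), not past the threshold. The value for Dnm3, on the opposite strand, was 0.12 (SE 0.27, limma adjusted p = 0.836).

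The response to bleomycin was changed by both gapmers together in 2045 of the 20728 genes (9.87%), 1282 with a higher and 763 with a lower response (6.18% and 3.68%). These shares are the ones to set beside every count of list members with a higher or lower response below. Without adjustment, 5125 genes had p under 0.05, and the median change over all genes was 0.026 with a median SE of 0.124. Large changes were mostly reductions: 140 called genes had a response more than 2-fold lower and 30 more than 2-fold higher. The reductions lay mainly in the bleomycin groups for 525 genes, were split for 200 and lay mainly in the PBS groups for 38. The increases were placed otherwise, with 337 genes mainly in the bleomycin groups, 716 split and 229 mainly in the PBS groups. Of the 140 large reductions 107 lay mainly in the bleomycin groups, against 4 of the 30 large increases. In separate tests of the bleomycin and PBS differences, the bleomycin difference was called for 1450 of the 2045 genes, the PBS difference for 29 and neither for 570. Over all genes, 3387 differed between gapmers and control in bleomycin mice (16.3%) and 36 in PBS mice (0.174%), where fewer arrays were compared and 3289 genes had an unadjusted p under 0.05.

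Several arrays carried much of the count. It was 1133 without PBS control replicate 1, 1073 without PBS control replicate 3 and 1283 without bleomycin control replicate 2, and between 1073 and 2861 over all omissions of 1 array. With the mean of the adipose list as a covariate, a setting chosen after seeing the data, 715 genes were called, 423 higher and 292 lower. That mean itself differed between the groups compared, so the covariate takes up part of the contrast.

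**Figure D2:**
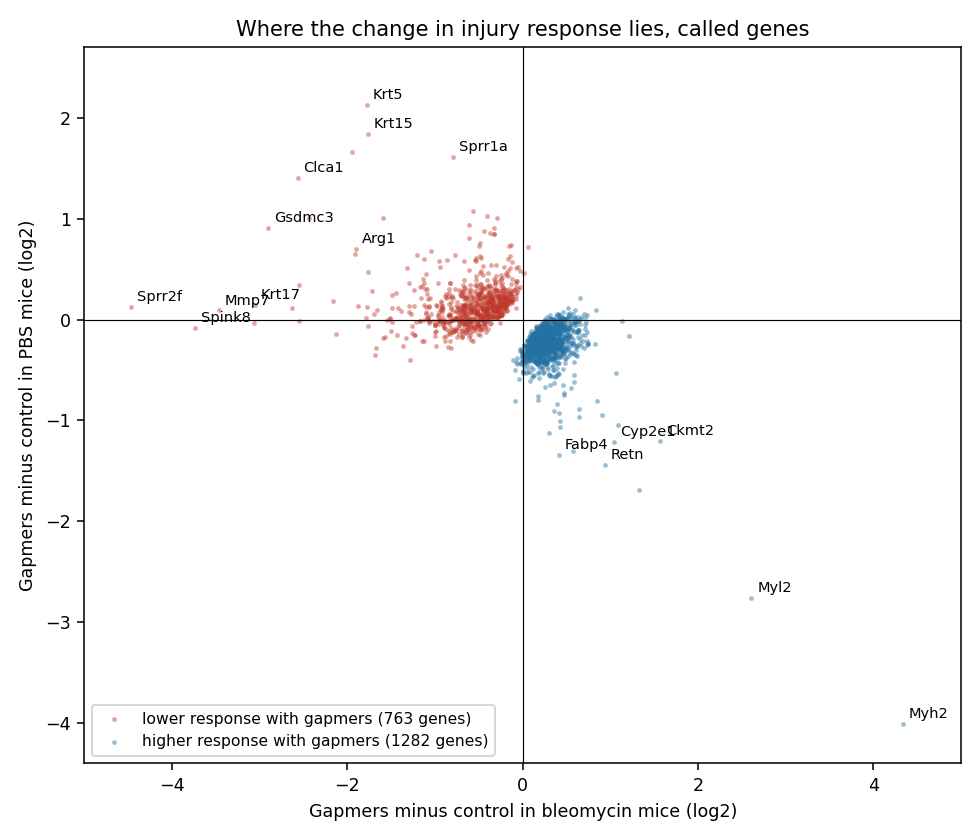
Gapmer minus control difference in bleomycin mice (x axis, log2) and in PBS mice (y axis, log2) for the 2045 genes with a changed response, 763 lower in red and 1282 higher in blue. Sprr2f, Spink8, Mmp7 and Krt17 lie far to the left near 0 in PBS mice, Krt5, Krt15 and Clca1 also lie above 0 in PBS mice, and Myh2, Myl2 and Retn lie below it.

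Several of the largest reductions were in genes of epithelial repair and barrier formation. Sprr2f, which encodes a precursor of the cornified envelope of stratified epithelia, read 5.44 to 5.67 on the 10 bleomycin gapmer arrays (median 5.56), against 10.31, 10.70, 9.72, 10.02 and 9.31 in bleomycin controls. PBS values were 5.55 to 6.31 with gapmers (median 5.71), against 5.46, 5.98 and 5.47 with control. Only the bleomycin controls were high, and no gapmer array came near them. The change in response was -4.59 (SE 0.26, limma adjusted p = 2.13e-10) and lay in the bleomycin groups (-4.46, against 0.13 in PBS mice). With 6.11 in place of the dim gapmer level, the bleomycin control mean of 10.01 stood 3.9 above it. The PBS gapmer 1 arrays had squamous list means of 9.24 to 9.74, close to the 9.48 to 9.76 of bleomycin controls, with Sprr2f at 5.69, 6.31 and 5.55.

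Krt17, a keratin of basal and injury-associated epithelial cells, read 6.28 to 7.02 on bleomycin gapmer arrays (median 6.59), against 9.69, 9.97, 9.70, 9.68 and 9.30 in bleomycin controls. Its PBS levels were 5.88 to 6.22 with gapmers (median 6.08) and 5.89, 6.08 and 5.78 with control. The groups were far apart in bleomycin mice and overlapped in PBS mice. The response fell by 3.20 (SE 0.18, limma adjusted p = 2.04e-10), mainly in the bleomycin groups, and with the gapmers a response of 0.55 was still called (limma adjusted p = 0.00036). Spink8, a Kazal-type protease inhibitor gene, read 5.50 to 5.82 on bleomycin gapmer arrays and 8.87 to 9.89 in bleomycin controls, and its response changed by -3.66 (SE 0.17). Mmp7, the matrilysin gene of injured epithelium, read 5.56 to 6.11 on bleomycin gapmer arrays, against 9.73, 9.94, 9.11, 9.62 and 7.66 in bleomycin controls. Its response changed by -3.56 (SE 0.37, limma adjusted p = 5.11e-06). Both genes read under 6.11 in every PBS sample, and the bleomycin control means stood 3.29 and 3.10 above that level. Both changes lay in the bleomycin groups.

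Among these reductions 1 promoter each of Sprr2f and Mmp7 is shown, from RefSeq on GRCm38.p6. Both genes were near the floor on all arrays but those of bleomycin controls, as was Spink8, which is not shown. Each promoter runs from 250 bases before to 50 after the annotated start, on the plus strand, at chr3:92364937-92365236 and chr9:7691840-7692139. Capitals mark matches to the AP-1 motif TGANTCA and to the TATA motif TATAAA, searched on both strands.
Sprr2f: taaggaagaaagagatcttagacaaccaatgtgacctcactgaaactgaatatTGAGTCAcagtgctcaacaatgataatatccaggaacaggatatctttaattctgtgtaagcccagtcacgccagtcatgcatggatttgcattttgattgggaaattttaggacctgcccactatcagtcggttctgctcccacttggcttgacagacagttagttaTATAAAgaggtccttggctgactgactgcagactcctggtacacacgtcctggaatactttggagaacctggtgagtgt
Mmp7: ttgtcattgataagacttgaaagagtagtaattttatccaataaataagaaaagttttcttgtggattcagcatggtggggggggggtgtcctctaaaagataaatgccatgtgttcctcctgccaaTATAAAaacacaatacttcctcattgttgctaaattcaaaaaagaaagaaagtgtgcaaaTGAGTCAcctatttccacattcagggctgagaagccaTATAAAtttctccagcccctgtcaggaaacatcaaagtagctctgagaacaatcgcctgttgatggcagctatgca
The AP-1 letters begin 197 bases before the start of Sprr2f and 63 before that of Mmp7. Of the 12 genes named by rule for the largest reductions, 7 matched annotated promoters, and Sprr2f and Mmp7 held both motifs, in 2 of 8 promoters (25%). They were the only ones of these genes with either motif. The second annotated promoter of Mmp7, at chr9:7692091-7692390, held neither and is not shown. Over all 32851 promoters 7.81% held the AP-1 letters and 13.6% the TATA letters. A match describes the sequence and does not show binding.

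The other large reductions that lay mainly in the bleomycin groups were of mixed function. Gsdmc3, a gasdermin gene, changed by -3.81 (SE 0.39), Alox12e, an epidermal lipoxygenase gene, by -2.90 (SE 0.21) and Glycam1, a ligand of L-selectin on high endothelial venules, by -3.03 (SE 0.32), all with limma adjusted p of 5.08e-06 or less. For each of them every bleomycin gapmer array lay below every bleomycin control. The immunoglobulin light chain segment Igkv5-39 changed by -3.44 (SE 0.76, limma adjusted p = 0.00771), with at most 9.24 on bleomycin gapmer arrays and at least 10.12 in bleomycin controls. Segments of this family share sequence, so the feature may read several.

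Clca1, a product of mucus-secreting airway cells, and the basal keratins Krt5, Krt14 and Krt15 had changes that were split. Krt5 read 8.11 to 12.14 on bleomycin gapmer arrays (median 11.64), against 13.34, 13.43, 12.93, 13.35 and 12.82 in bleomycin controls. PBS arrays read 7.11 to 12.71 with gapmers (median 11.93), against 9.53, 10.01 and 6.66 with control. The gapmer arrays were all below control in bleomycin mice, and 4 of the 6 were above every control in PBS mice. The change was -3.91 (SE 1.10, limma adjusted p = 0.0273), made up of -1.78 in bleomycin and 2.13 in PBS mice, and neither part was called (limma adjusted p = 0.0754 and 0.235). Krt5 was no longer called without PBS control replicate 3 (-2.88) or bleomycin control replicate 2 (-3.847), and Krt15 (-3.61) and Krt14 (-3.61) were not called without PBS control replicate 3 (-2.765 and -3.408).

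Clca1 changed by -3.97 (SE 0.82, limma adjusted p = 0.00557), -2.57 of it in bleomycin mice, and by -2.395 over the mean of its features. On bleomycin gapmer arrays it lay between 9.49 and 10.78 except for 14.00 on gapmer 1 replicate 4, against 12.78 to 13.54 in bleomycin controls. Sprr1a, another cornified-envelope gene, changed by -2.41 (SE 0.66, limma adjusted p = 0.0244), mainly in the PBS groups (-0.80 in bleomycin mice and 1.61 in PBS mice). It was not called without PBS control replicate 1 or 3 (-2.351 and -1.927). Sprr2d, of the same gene family as Sprr2f, changed by -2.53 (SE 0.19), and Krt6a, a keratin of activated epidermis, by -1.44 (SE 0.18), both mainly in the bleomycin groups. Whether features of the Sprr2 family read one another's transcripts was not checked. Sprr2a1 and Sprr2b had medians of 5.54 and 5.56 on bleomycin gapmer arrays, against 5.67 and 5.66 in bleomycin controls. Of 28 squamous epithelial genes, 11 had a lower and 0 a higher response, with a median change of -1.99. Over all 28, the median gapmer minus control difference was -0.25 in bleomycin mice and 1.10 in PBS mice. Much of the list's change thus lay in PBS levels, although 0 of the 28 were called in PBS mice. The list mean was 9.24 to 9.74 on PBS gapmer 1 arrays, above the 6.66 to 8.36 of PBS controls. On PBS gapmer 3 arrays it was 9.66, 6.72 and 7.80. Of the 11 with a called change 5 lay mainly in the bleomycin groups, 5 were split and 1 lay mainly in the PBS groups, and 6 were called without PBS control replicate 3. In bleomycin mice 9 of the 28 were called lower with gapmers and 0 higher (8.23% and 8.11% of all genes). By array median, though, Lor, Krtdap and Sprr1b stood higher with gapmers there (15.36, 12.76 and 7.85, against 14.77, 12.30 and 7.30 in controls). Bleomycin gapmer 3 replicate 1 was the lowest array for each, at 7.90, 6.34 and 5.60. The list mean varied on PBS arrays as given above, and its part in these values was not tested.

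**Figure D3:**
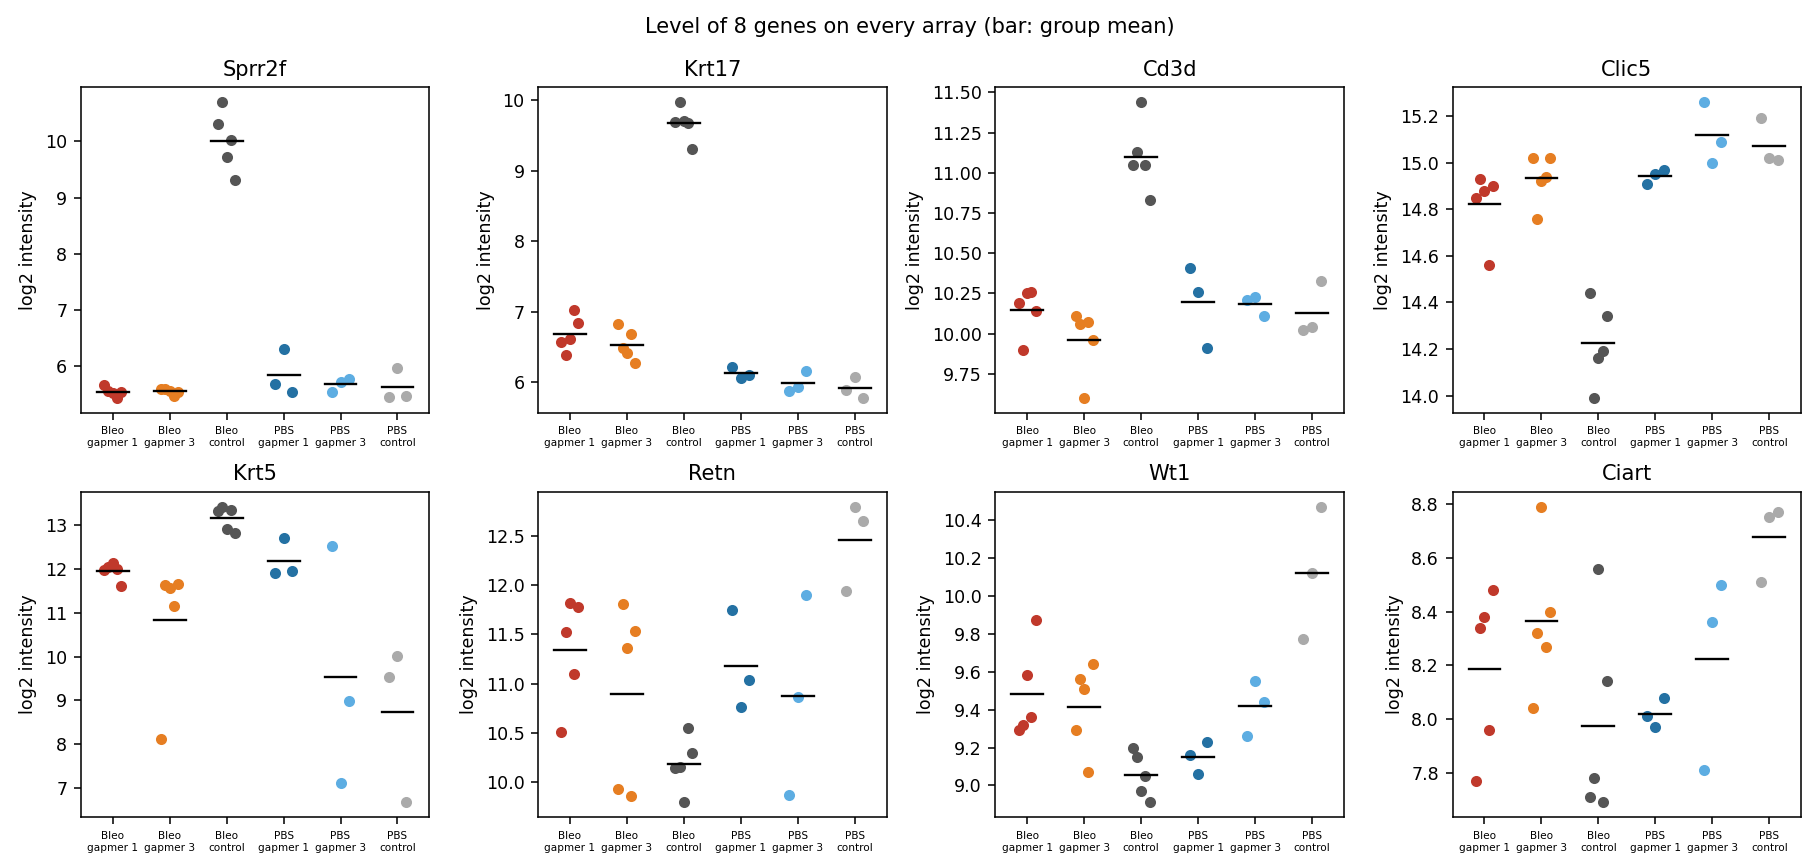
Log2 intensity (y axis) of 8 genes on each of the 24 arrays by group (x axis), with a bar at the group mean. Sprr2f, Krt17 and Cd3d are high only in bleomycin controls and Clic5 is low only there, whereas for Krt5, Retn, Wt1 and Ciart the PBS group means stand apart as well.

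Genes of the transitional alveolar epithelium and airway secretion followed in part. Cldn4, a tight junction gene induced in injured alveolar epithelium, read 7.70 to 8.96 on bleomycin gapmer arrays (median 8.16), against 9.42, 9.48, 9.14, 9.47 and 9.13 in bleomycin controls. Its response fell by 1.39 (SE 0.23, limma adjusted p = 0.00124), mainly in the bleomycin groups. Krt8, the keratin that names the transitional state, had a value of -0.15 (SE 0.10) and was not called (limma adjusted p = 0.377). Of 17 genes of the list, 3 had a lower response and 0 a higher one (median -0.28), with 6 lower without bleomycin gapmer 1 replicate 4. Sfn, an epithelial 14-3-3 protein, was split (-1.26, SE 0.23), and the cell cycle inhibitor Cdkn1a lay mainly in the PBS groups (-0.77, SE 0.20, limma adjusted p = 0.0188). Cdkn1a differed by -0.14 between gapmers and control in bleomycin mice and by 0.63 in PBS mice, and was not called without PBS control replicate 3 (-0.67). Among 20 genes of the p53 pathway it was called with Sesn2 (-0.65, SE 0.21, also mainly PBS), and these 20 had a median of -0.04. The pair was called together in only 5 of the 24 omissions of 1 array, whereas Cdkn1a kept its own call in 35 of 37 alternative settings. Among 19 airway secretory genes, 6 had a lower response and 0 a higher one (median -0.38). The antimicrobial gene Ltf (-1.55, SE 0.27) lay mainly in the bleomycin groups and Reg3g (-1.56, SE 0.29) was split.

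Among alveolar type 1 cell genes the called changes were increases. Clic5, a chloride channel family gene of these flat gas-exchange cells, read 14.56 to 15.02 on bleomycin gapmer arrays (median 14.91), against 14.44, 13.99, 14.16, 14.19 and 14.34 in bleomycin controls. Without bleomycin it read 14.91 to 15.26 with gapmers (median 14.98), against 15.19, 15.02 and 15.01 with control. Bleomycin controls were the low group, and gapmer arrays stood above them without overlap. The change was 0.69 (SE 0.12, limma adjusted p = 0.00153), mainly in the bleomycin groups. Sema3e (0.87, SE 0.17), a semaphorin gene, was placed likewise. Of 16 genes of the list, 8 had a higher response and 0 a lower one, with a median of 0.42, and all 8 lay mainly in the bleomycin groups. With Dnm3os gapmers 4 of the 16 fell and 3 rose with bleomycin (10.5% and 11.9% of all genes), and with the control gapmer 11 fell and 3 rose (19.3% and 14.5%, 33.8% together). The usual markers Ager (0.26, SE 0.19) and Cav1 (0.45, SE 0.17) did not pass (limma adjusted p = 0.422 and 0.0949).

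This count rested on few arrays. It was 4 without bleomycin control replicate 2, PBS control replicate 1 or PBS control replicate 2, and 5 without bleomycin control replicate 1 or 4, PBS gapmer 1 replicate 1 or PBS gapmer 3 replicate 1. It was 4 with the adipose covariate. Alveolar type 2 cell genes had a higher response in 3 of 17 cases and a lower one in 0 (median 0.19), and 5 were higher without bleomycin gapmer 1 replicate 4. Lamp3, a lamellar body gene, changed by 0.74 (SE 0.17) and the surfactant gene Sftpa1 by 0.64 (SE 0.20, limma adjusted p = 0.0447), both mainly in the bleomycin groups, and the fatty acid synthase gene Fasn by 0.87 (SE 0.19, split). Sftpa1 lost its call in 24 of 37 alternative settings.

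T cell genes had a lower response in 14 of 18 cases. Cd3d, a subunit of the T cell receptor complex, read 9.60 to 10.26 on bleomycin gapmer arrays (median 10.09), against 11.05, 11.13, 11.44, 11.05 and 10.83 in bleomycin controls. In PBS mice it read 9.91 to 10.41 with gapmers (median 10.22), against 10.02, 10.04 and 10.33 with control. The bleomycin controls were high, and the other groups overlapped with one another. Its response fell by 1.10 (SE 0.16, limma adjusted p = 0.000472), mainly in the bleomycin groups, and with the gapmers the response was -0.13 and not called (limma adjusted p = 0.37).

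None of the 18 measured T cell genes had a higher response, their median change was -0.88 (0.026 over all genes), and all 14 called changes lay mainly in the bleomycin groups. With the Dnm3os gapmers bleomycin raised 3 of the 18, Il2ra, Icos and Foxp3, which is near the share over all genes (11.9%). With the control gapmer it raised 16 (14.5% of all genes). In bleomycin mice 15 were lower with gapmers than with control (8.23% of all genes). Il2ra, the high-affinity interleukin receptor chain of activated and regulatory T cells, changed by -1.37 (SE 0.18), the surface receptors Cd5 and Cd6 by -1.34 (SE 0.16) and -1.16 (SE 0.18), and Foxp3, the regulator of regulatory T cells, by -1.01 (SE 0.19, limma adjusted p = 0.00256). Cd4 (-0.52), Cd8a (-2.26), Tigit (-0.44) and Trat1 (-0.44) were not called. The value for Cd8a turned on 1 array, PBS gapmer 3 replicate 2, which read 12.45 against 7.04 to 7.68 on the other 5 PBS gapmer arrays, and without it the value was -1.45 (SE 0.36, limma adjusted p = 0.0157). In bulk lung, fewer cells of a type and less RNA per cell cannot be told apart.

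Bleomycin control replicate 3, with the high thymus list, also had the highest T cell list mean, 9.35 against 8.71 to 9.11 in the other 4 bleomycin controls. Between 12 and 15 T cell genes were called lower whichever array was left out, that one included, and 11 with the adipose covariate. Of 15 B and plasma cell genes, 8 had a lower response and 0 a higher one (median -0.58), all mainly in the bleomycin groups, and 4 without PBS control replicate 3. Cr2, the complement receptor of mature B cells, changed by -1.34 (SE 0.23) and the antigen receptor gene Cd79a by -0.95 (SE 0.22). The NK and cytotoxic list did not shift as a whole (median 0.05): of 14 genes Klrg1 was lower (-1.03, SE 0.19, mainly bleomycin) and Klre1 and Ncr1 were higher (0.66 and 0.44, both split), with 1 higher without bleomycin control replicate 2 or PBS control replicate 1 or 3.

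Of 39 cytokine and chemokine genes, 16 had a lower response and 2 a higher one (3.68% and 6.18% of all genes). The median was -0.39, and 15 of the 18 lay mainly in the bleomycin groups. Cxcl5, a neutrophil attractant, read 6.32 to 6.96 on bleomycin gapmer arrays (median 6.78), against 8.84, 9.34, 8.69, 8.87 and 8.51 in bleomycin controls. The response fell by 2.00 (SE 0.21, limma adjusted p = 5.08e-06). Il6, an inflammatory cytokine, read 7.02 to 8.41 on bleomycin gapmer arrays and 8.63 to 9.33 in bleomycin controls, and its response fell by 1.73 (SE 0.33, limma adjusted p = 0.00323). Ccl2, which draws in monocytes, fell by 1.71 (SE 0.39, limma adjusted p = 0.00971) with overlapping groups, since gapmer 1 replicate 4 read 10.82 and bleomycin control replicate 5 read 10.49. All 3 changes lay mainly in the bleomycin groups. The list's lower count was 9 without PBS control replicate 1 and 6 with the adipose covariate.

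Of 25 interferon response genes, 8 had a lower response and 0 a higher one (median -0.29), 4 mainly in the bleomycin groups and 4 split. The T cell attractants Cxcl9 (-1.66, SE 0.44) and Cxcl10 (-1.49, SE 0.40) lay in the bleomycin groups, and the antiviral gene Oasl1 (-1.15, SE 0.33) was split. The count was 4 without bleomycin control replicate 2 or 4, PBS control replicate 1 or PBS gapmer 1 replicate 1, and 5 without bleomycin control replicate 1, PBS control replicate 2 or PBS gapmer 3 replicate 1. It was 2 with the adipose covariate. Of 24 complement and acute-phase genes, 6 were lower and 2 higher (median -0.18), with 1 to 4 higher over omissions of 1 array, and 3 lower without PBS control replicate 3 or with the adipose covariate. The serum amyloid gene Saa3 changed by -2.57 (SE 0.48, limma adjusted p = 0.00305) and Saa1 by -1.28 (SE 0.23), both mainly in the bleomycin groups. Saa3 read 10.18 to 11.42 on 9 bleomycin gapmer arrays and 12.63 on gapmer 1 replicate 4, against 12.51 to 13.20 in bleomycin controls.

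Among 22 monocyte-derived macrophage genes, 6 had a lower response and 0 a higher one (median -0.49). Arg1, the arginase of alternatively activated macrophages, read 7.89 to 9.59 on bleomycin gapmer arrays (median 8.41), against 10.48, 10.83, 10.17, 10.55 and 10.05 in bleomycin controls. The PBS arrays read 7.01 to 8.50 with gapmers (median 7.96), against 6.94, 7.59 and 6.85 with control. The groups were separate in bleomycin mice and overlapped in PBS mice. The response fell by 2.6 (SE 0.39, limma adjusted p = 0.000552), mainly in the bleomycin groups. The osteopontin gene Spp1 changed by -0.91 (SE 0.25, limma adjusted p = 0.0227), mainly in the bleomycin groups, and the macrophage elastase gene Mmp12 by -1.46 (SE 0.28), split (-0.883 over the mean of its features). Spp1 was not called without PBS control replicate 3 (-0.77). Trem2, a lipid-sensing receptor of these cells named after its values were seen, lay mainly in the PBS groups. Its change of -0.89 came with a bleomycin difference of -0.16 and a PBS difference of 0.73 (limma adjusted p = 0.019). Without PBS control replicate 3 no PBS difference was called for any gene. Among 15 alveolar macrophage genes 2 were higher, Fabp4 and Cidec, which are adipose genes as well, and 1 was lower. These counts ran from 1 to 3 and from 0 to 2 when single arrays were left out.

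Most matrix genes rose with bleomycin under either kind of gapmer. Of 40 extracellular matrix genes, 31 rose with bleomycin under the Dnm3os gapmers and 31 under the control gapmer (11.9% and 14.5% of all genes), with median responses of 0.65 and 1.04. The change was called lower for 9 and higher for 1 (median -0.47), and 24 of the 40 were lower with gapmers in bleomycin mice (8.23% of all genes). Tnc, the matrix glycoprotein of active scars, read 6.72 to 7.44 on bleomycin gapmer arrays (median 7.12), against 8.22, 8.30, 8.06, 8.28 and 7.95 in bleomycin controls, and its response fell by 1.28 (SE 0.17, limma adjusted p = 0.000103). The hyaluronan synthase gene Has2 fell by 1.39 (SE 0.31) and the fibronectin gene Fn1 by 0.58 (SE 0.17, limma adjusted p = 0.033). All 3 lay mainly in the bleomycin groups. The elastin gene Eln changed by -1.43 (SE 0.45, limma adjusted p = 0.0463), split, and lost its call in 21 of 37 alternative settings, as Fn1 did in 9.

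The collagens Col1a1 (-0.54, SE 0.18) and Col3a1 (-0.43, SE 0.19) did not pass for the change in response (limma adjusted p = 0.0628 and 0.15), although both were lower with gapmers in bleomycin mice (-0.50 and -0.36, limma adjusted p = 0.00351 and 0.0345). The matrix count was 17 without bleomycin gapmer 1 replicate 4, 5 without bleomycin control replicate 2 and 4 without PBS control replicate 3, and 2 with the adipose covariate. Postn, a matrix protein gene, had a value of 0.28 (SE 0.14) and was not called (limma adjusted p = 0.217).

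Of 24 matrix proteases and inhibitors, 9 had a lower response and 0 a higher one (median -0.32), 5 without bleomycin control replicate 2 and 3 with the adipose covariate. Timp1, an inhibitor of matrix metalloproteinases, read 11.51 to 12.45 on 9 bleomycin gapmer arrays and 13.45 on gapmer 1 replicate 4, against 13.95, 14.22, 13.74, 13.98 and 13.53 in bleomycin controls. Its response fell by 1.81 (SE 0.35, limma adjusted p = 0.00367), in the bleomycin groups, and that of Adamts4, an aggrecanase gene, fell by 2.00 (SE 0.42, mainly bleomycin). Gapmer 1 replicate 4 was the gapmer array nearest the controls for Clca1, Timp1, Saa3, Ccl2, Il6 and Arg1, genes set side by side after their values were seen.

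Acta2, the smooth muscle actin of myofibroblasts and vessels, read 13.07 to 13.82 on bleomycin gapmer arrays (median 13.30), against 14.07, 14.26, 13.79, 14.22 and 13.88 in bleomycin controls. The groups overlapped by 1 gapmer array. Its response fell by 0.97 (SE 0.16, limma adjusted p = 0.00139), mainly in the bleomycin groups, as did that of the smooth muscle actin gene Actg2 (-0.92, SE 0.20). Of 18 contractile and myofibroblast genes, 6 were lower and 0 higher (median -0.31), and 3 without bleomycin control replicate 1 or 2, PBS control replicate 1 or 3 or PBS gapmer 1 replicate 2, or with the adipose covariate. Of 23 TGF-beta response genes, 5 were lower and 3 higher (median -0.36). The count of lower ones was 2 without PBS control replicate 1 or 3, 3 without PBS control replicate 2, bleomycin control replicate 1, 2 or 4, bleomycin gapmer 3 replicate 3 or PBS gapmer 3 replicate 1, and 1 with the adipose covariate. None of the higher ones was called by limma without PBS control replicate 1 or 3 or with the adipose covariate, and 1 was without bleomycin control replicate 4, PBS gapmer 1 replicate 2 or PBS gapmer 3 replicate 1 or 2. The activin subunit Inhba (-1.13, SE 0.34) and the activin antagonist Fst (-1.40, SE 0.37) were lower, mainly in the bleomycin groups, and Tgfb1 itself had a value of -0.41 (SE 0.17, limma adjusted p = 0.133).

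Of 20 genes of resident fibroblasts, 5 had a higher response and 0 a lower one (median 0.30), among them the receptor gene Fgfr4 (0.80, SE 0.24, mainly bleomycin), the integrin gene Itga8 (0.66, SE 0.18, split) and the sodium channel gene Scn7a (0.61, SE 0.18, split). That count ran from 2 to 10 over omissions of 1 array, with 10 without bleomycin gapmer 1 replicate 4, 9 without bleomycin control replicate 5, 3 without bleomycin control replicate 1, PBS control replicate 3 or PBS gapmer 3 replicate 3, and 2 without bleomycin control replicate 2 or 4 or PBS control replicate 1. Of 21 endothelial genes, 5 were higher and 1 lower (6.18% and 3.68% of all genes, median 0.23). The lower count was 0 without bleomycin control replicate 2 or PBS control replicate 1 or 3. Tmem100, an endothelial gene downstream of bone morphogenetic proteins, changed by 0.76 (SE 0.18, mainly bleomycin), whereas Ackr1, a chemokine-binding receptor of venules, changed by -1.06 (SE 0.29, mainly bleomycin). Kdr, the main receptor for vascular endothelial growth factor, had a value of 0.40 (SE 0.15) and was not called (limma adjusted p = 0.0875). The higher count was 3 without bleomycin control replicate 2 and 2 without PBS control replicate 1.

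Proliferation genes rose with bleomycin under either kind of gapmer, in 25 of 27 cases with Dnm3os gapmers and 26 with control (11.9% and 14.5% of all genes), with medians of 1.11 and 1.77. The change was called lower for 8, all mainly in the bleomycin groups, with a median of -0.67. The topoisomerase gene Top2a fell by 1.10 (SE 0.24, limma adjusted p = 0.0072) and the cyclin gene Ccnb2 by 0.81 (SE 0.20). Mki67, the usual marker of dividing cells, changed by -0.77 (SE 0.24, limma adjusted p = 0.0488) and lost its call in 23 of 37 alternative settings. The count was unstable: it was 19 without bleomycin gapmer 1 replicate 4, 14 without bleomycin control replicate 5, and 0 with the adipose covariate. It was 3 to 5 without bleomycin control replicate 1, 2, 3 or 4, PBS control replicate 1 or 3, bleomycin gapmer 1 replicate 3, bleomycin gapmer 3 replicate 3 or 4, PBS gapmer 1 replicate 1 or 3, or PBS gapmer 3 replicate 1 or 2.

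**Figure D4:**
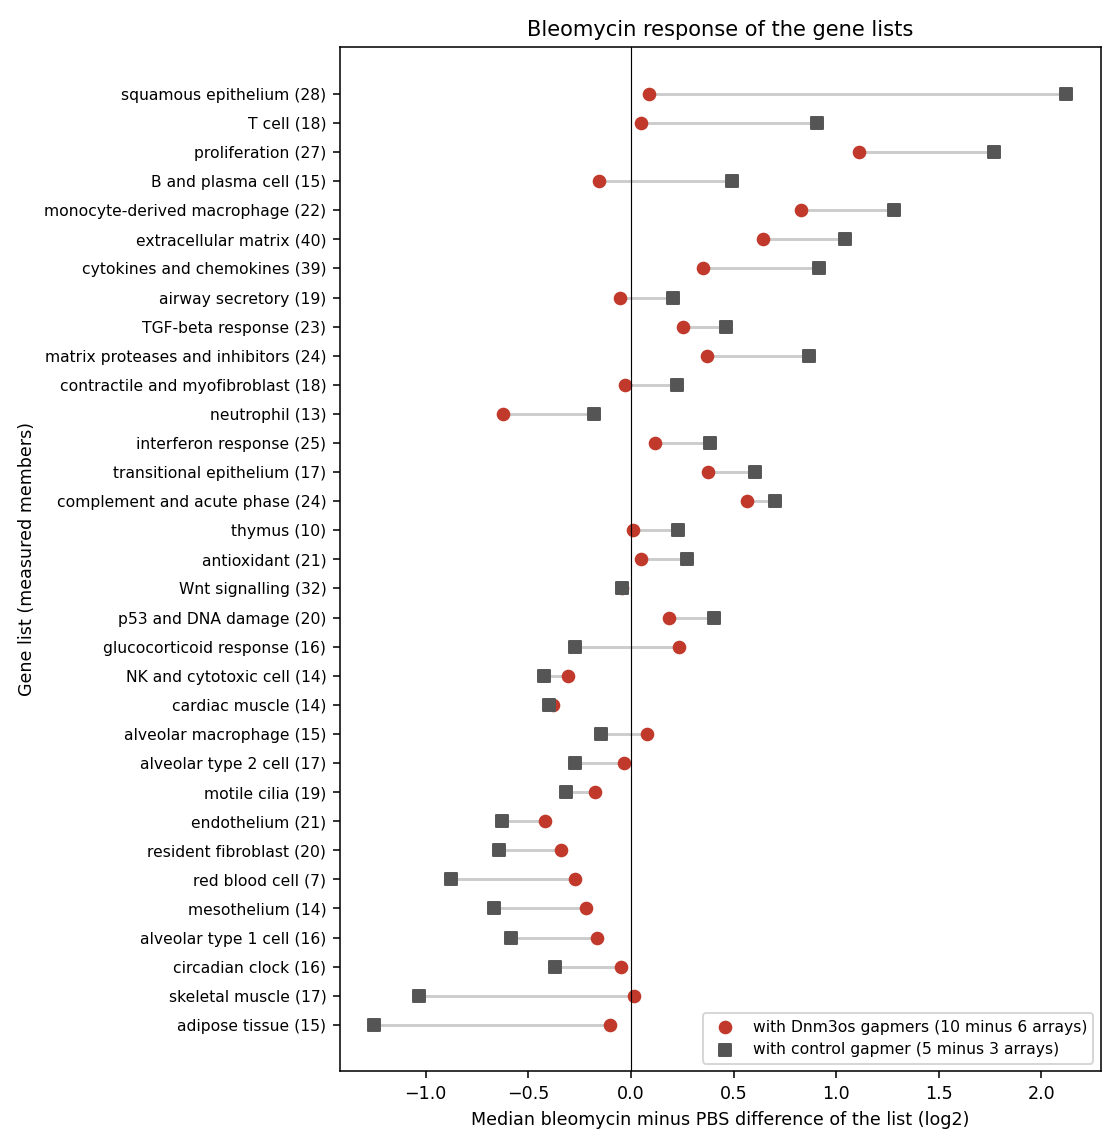
Median bleomycin minus PBS difference (x axis, log2) of 33 gene lists (y axis, measured members in brackets), with Dnm3os gapmers as circles and with the control gapmer as squares. The medians for T cell genes were 0.05 with Dnm3os gapmers and 0.91 with control, and for squamous epithelial genes 0.09 and 2.12. In PBS mice the squamous genes had a median gapmer minus control difference of 1.10, against -0.25 in bleomycin mice.

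Clock genes had a higher response in 10 of 16 cases. In the daily cycle, the activators Arntl and Clock drive the Per and Cry repressors and the output factors Dbp, Tef and Hlf. Per2 read 9.30 to 9.87 on bleomycin gapmer arrays (median 9.54), against 9.21, 9.00, 9.05, 9.17 and 8.99 in bleomycin controls. PBS levels were 8.57 to 9.38 with gapmers (median 9.09), against 9.57, 9.46 and 9.27 with control. Gapmer arrays were above control in bleomycin mice without overlap and mostly below it in PBS mice. The change was 0.91 (SE 0.14, limma adjusted p = 0.000541), split into 0.48 in bleomycin and -0.43 in PBS mice.

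Of the 16 clock genes 1 had a lower response, and the median was 0.50. Of the 11 called, 2 lay mainly in the bleomycin groups, 7 were split and 2 lay mainly in the PBS groups. Dbp changed by 0.78 (SE 0.16) and Per3 by 0.37 (SE 0.12), both mainly in the bleomycin groups, and Tef (0.77), Hlf (0.78), Nr1d2 (0.87), Cry2 (0.58) and Ciart (0.85) were split. Clock (0.34) and Cry1 (0.42) lay mainly in the PBS groups. Arntl, which cycles opposite to the repressors, was the lower one (-0.76, SE 0.16, limma adjusted p = 0.00697, split). Per1 (0.58), Nr1d1 (0.13), Nfil3 (-0.58), Bhlhe41 (0.20) and Npas2 (-0.16) did not pass. The count of higher genes was 5 without bleomycin control replicate 1, 2 or 4 or PBS control replicate 3, 6 without PBS gapmer 1 or PBS gapmer 3 replicate 1, and 2 with the adipose covariate. The labels do not state the time of day of sampling.

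The promoter of Ciart, a repressor of the clock activators, is shown as 1 chosen example, with 3 matches to the E-box CACGTG. It lies on the minus strand at chr3:95882179-95882478 (RefSeq, GRCm38.p6), and capitals mark the E-box.
Ciart: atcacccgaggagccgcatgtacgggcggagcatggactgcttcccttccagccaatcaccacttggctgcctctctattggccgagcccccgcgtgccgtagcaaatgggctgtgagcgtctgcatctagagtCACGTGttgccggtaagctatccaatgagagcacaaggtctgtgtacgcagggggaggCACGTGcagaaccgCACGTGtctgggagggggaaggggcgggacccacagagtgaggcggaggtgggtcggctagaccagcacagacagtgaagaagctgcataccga
The 3 matches begin 116, 58 and 44 bases before the start. Of 17 clock genes listed, 15 matched, and 6 of their 20 promoters held the E-box (30%), against 7.15% of all promoters. They belong to Bhlhe41, Ciart, Cry1, Per1 and Tef, and the changes of Bhlhe41 and Per1 were not called. The share therefore describes the list and not the genes with a changed response. A match does not show binding.

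The largest increases were in genes of fat and muscle. Retn, the fat-cell hormone resistin, read 9.86 to 11.82 on bleomycin gapmer arrays (median 11.44), against 10.14, 10.15, 9.79, 10.55 and 10.29 in bleomycin controls. Without bleomycin, levels were 9.87 to 11.90 with gapmers (median 10.95), against 11.94, 12.80 and 12.65 with control. The bleomycin controls were low and the PBS controls high, with most gapmer arrays between them. The change was 2.37 (SE 0.55, limma adjusted p = 0.00994), split into 0.94 in bleomycin and -1.44 in PBS mice, of which neither was called (limma adjusted p = 0.061 and 0.13). Fabp4 (1.75, SE 0.47) and Adipoq (1.87, SE 0.57), a fatty acid carrier and the hormone adiponectin, lay mainly in the PBS groups, and so did the melanocortin receptor accessory gene Mrap (1.42, SE 0.42) and the amine oxidase gene Aoc3 (1.33, SE 0.33). Cidec (1.85, SE 0.45) and Plin4 (1.53, SE 0.45), of lipid droplets, and the adipsin gene Cfd (1.61, SE 0.42) were split. Of 37 alternative settings, Adipoq lost its call in 21, Mrap in 14, Plin4 in 11, Fabp4 in 4, Cfd in 3, Aoc3 in 2 and Retn and Cidec in 1. With the adipose covariate none of the 8 was called, for example Retn at 1.141 and Adipoq at 0.524.

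Of 15 adipose genes, 7 had a higher response and 0 a lower one (median 1.36), 5 split and 2 mainly in the PBS groups, and 3 without PBS control replicate 2. The list means given for the arrays place all bleomycin controls below the PBS controls. Cyp2e1, a cytochrome that metabolises small organic molecules (2.25, SE 0.48), and Cys1, which encodes cystin of the primary cilium (1.65, SE 0.34), were also split, and both kept their call in all 37 alternative settings, with Cyp2e1 at 1.146 under the adipose covariate. Zbtb16, a transcription factor gene induced by glucocorticoids (1.60, SE 0.47, limma adjusted p = 0.0342), lay mainly in the bleomycin groups and lost its call in 10 settings.

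Myh2, a fast skeletal myosin, read 6.36 to 13.97 on bleomycin gapmer arrays (median 10.76), against 6.08, 6.15, 5.91, 6.26 and 6.18 in bleomycin controls. In mice given PBS it read 5.87 to 13.78 with gapmers (median 7.77), against 11.81, 13.89 and 13.02 with control. Levels spanned most of the array's range within gapmer groups. The change of 8.35 (SE 1.99, limma adjusted p = 0.0119) was split, and was 5.184 and no longer called with the adipose covariate. The slow muscle light chain Myl2 (5.37, SE 1.61) and the mitochondrial creatine kinase gene Ckmt2 (2.77, SE 0.87) were split as well, and lost their calls in 15 and 21 of 37 settings. Of 17 skeletal muscle genes Myh2 was the only one called, with a list median of 0.81.

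Wt1, a transcription factor of the mesothelium that covers the lung, was called in bleomycin and in PBS mice. It read 9.07 to 9.87 on bleomycin gapmer arrays (median 9.43), against 9.20, 9.15, 8.97, 9.05 and 8.91 in bleomycin controls, and 9.06 to 9.55 on PBS gapmer arrays (median 9.25), against 9.77, 10.12 and 10.47 in PBS controls. The PBS controls were high and did not overlap with PBS gapmer arrays. The change of 1.23 (SE 0.18, limma adjusted p = 0.000457) lay mainly in the PBS groups, with a bleomycin difference of 0.39 and a PBS difference of -0.84 (limma adjusted p = 0.018 for each). Of 14 mesothelial genes, 5 were higher and 1, Krt14, lower (median 0.42), 5 split and 1 mainly in the PBS groups, and 2 higher with the adipose covariate. Of the 36 genes called in PBS mice, 7 were higher and 29 lower with gapmers (0.0338% and 0.14%). The count was 0 without PBS control replicate 3, 5 without PBS control replicate 1, 8 without PBS gapmer 3 replicate 1 and 409 without PBS control replicate 2.

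Wnt signalling genes were lower in 7 and higher in 3 of 32 cases (median -0.10), higher in 1 to 5 over omissions of 1 array, and lower in 3 or 4 without PBS control replicate 1 or 3 or bleomycin control replicate 2 or 4, with the ligand Wnt10a split (-1.73, SE 0.32) and the antagonist Sfrp1 mainly in the bleomycin groups (-1.01, SE 0.22). Among 21 antioxidant genes 4 were lower and 1 higher (median -0.16), including the metallothionein gene Mt2 (-1.41, SE 0.23) and the haem oxygenase gene Hmox1 (-0.95, SE 0.21), both mainly in the bleomycin groups, and the higher count ran from 0 to 3 over the same omissions. For comparison with both lists, 3.68% of all genes had a lower and 6.18% a higher response. The lists of motile cilia (median 0.20), neutrophil (-0.30), red blood cell (0.39), cardiac muscle (0.07), glucocorticoid response (-0.02) and thymus genes (-0.16) had at most 2 genes called in either direction. Their counts ran from 0 to 4 when single arrays were left out and are not read further. The immune gene Laptm5, outside these lists, changed by -1.44 (SE 0.43, limma adjusted p = 0.0379), mainly in the PBS groups. It lost its call in 11 of 37 settings and was at -0.957 without PBS control replicate 3.

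The changes with each gapmer alone are given side by side, and their contrasts share all control arrays. With gapmer 3, 641 genes were called (3.09%), 1.45% higher and 1.64% lower, and with gapmer 1, 1597 (7.7%), 4.97% higher and 2.74% lower. The change in Sprr2f was -4.51 with gapmer 3 and -4.68 with gapmer 1. In the same order it was -3.21 and -3.19 in Krt17, -1.19 and -1.01 in Cd3d, 0.66 and 0.73 in Clic5, and -1.76 and -1.85 in Timp1. Values were further apart for Krt5 (-3.15 and -4.68), Eln (-0.69 and -2.17) and Col1a1 (-0.29 and -0.79), where the direct test of gapmer 3 against gapmer 1, which uses no control array, did not pass (limma adjusted p = 0.986, 0.756 and 0.848). That test called 2 of 20728 genes (0.00965%), with 1151 at an unadjusted p under 0.05. Its median SE was 0.144, so small differences between the gapmers were not resolved for most genes. The called ones were Ptprs, a receptor tyrosine phosphatase gene, and Spag11b, an epididymal defensin-like gene, 1 in each direction (0.00482% each).

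**Figure D5:**
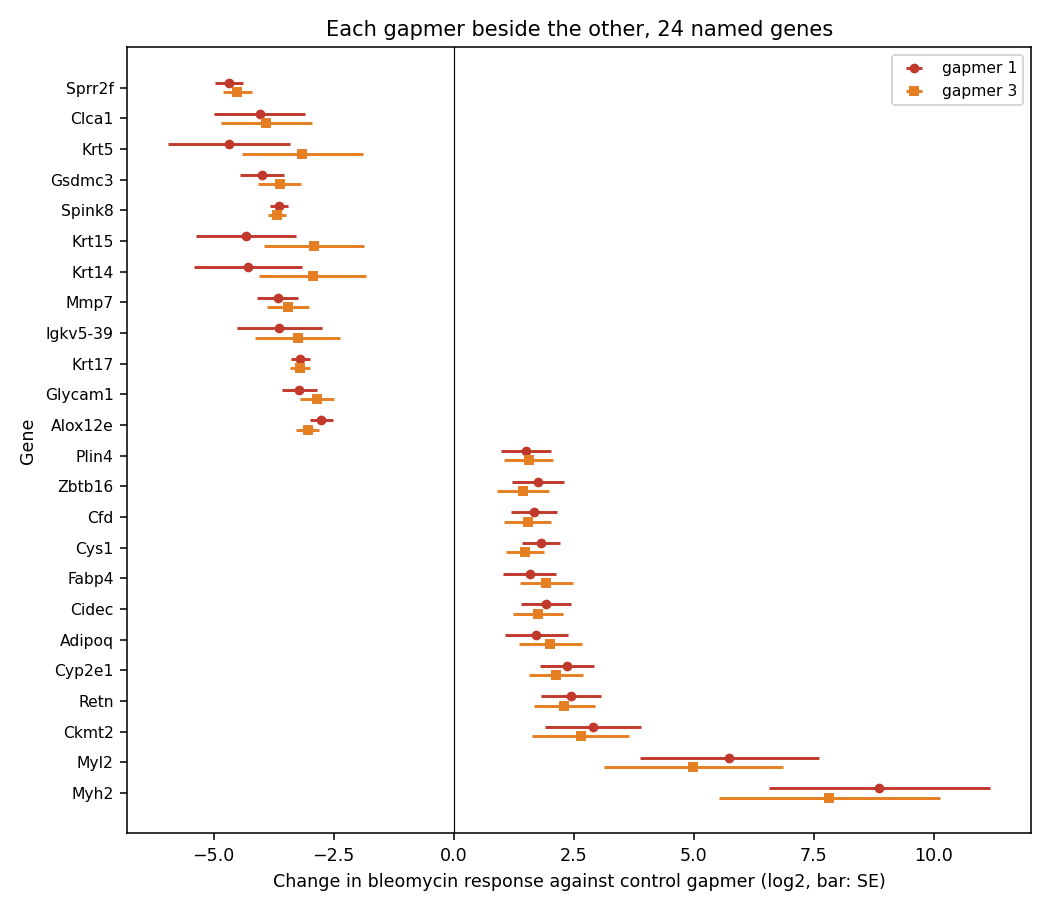
Change in bleomycin response against the control gapmer (x axis, log2, bars give the SE) for gapmer 1 and gapmer 3 in 24 genes (y axis). They had the largest pooled changes among the genes that met the naming rule, 12 in each direction. Both gapmers lie on the same side of 0 in all 24, as the naming rule required.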

How the data were processed

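Total RNA of 24 whole mouse lungs, extracted with TRIzol per the labels' protocols, was labelled with Cy3 and hybridised to one-colour Agilent arrays. The values as deposited by the authors are log2 intensities (5.03 to 18.25), quantile normalised as their nearly equal distributions show (array medians of 6.485 to 6.495). Log base 2 was read from the range of the values, limma is named per the submitters' processing notes, and no header or label states a background correction or a filter. The number of arrays limits the precision, and RNA integrity numbers were 8.5 to 10.

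Of 62976 features, 31465 had 1 gene symbol and 31511 none, and features without a symbol were not used. Of the symbols 18550 were current, 2003 were updated through an accession, 311 through a synonym and 5 kept, giving 20728 genes, of which 6176 had more than 1 feature. Group means of the 6 groups were fitted by lmFit and eBayes of limma (version 3.58.1, R version 4.3.3), with no covariate, and all contrasts, including the change in response with both gapmers averaged, came from that fit. Adjusted p-values are Benjamini-Hochberg over all genes. Dnm3os was also tested by two-sided exact permutation. The fit was tested on simulated data. Python 3.11.15, pandas 2.3.3, NumPy 2.4.6, SciPy 1.17.1 and matplotlib 3.10.9 were used for the rest.

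Genes were named by rule: the 12 largest increases and 12 largest reductions with the same sign and an unadjusted p under 0.05 with each gapmer and a group mean above the median of all gene means (8.54), the 6 largest changes mainly in the PBS groups, up to 3 called members of each of 33 gene lists (627 measured genes, 29 on several lists) and 37 fixed genes. All measured members of the clock list and the uncalled members of the T cell list are given. The called T cell members are given in part. A few other genes are marked as named after their values were seen. The members and lists were chosen with earlier results of these data known. Alternatives were other normalisation, filters, feature choices, variance models, array weights, RNA integrity and the skeletal muscle list mean as covariates, a replicate block and each array left out. Removal of a position trend on the array and the adipose list mean as a covariate were added after seeing the data. The labels' replicate numbers were not used as pairs. Deviations of same-numbered samples correlated at a median r of 0.07 (-0.41 to 0.42). Those of differently numbered samples correlated at -0.03 (-0.47 to 0.72). Counts with the replicate block are given below, and what the numbers stand for was not tested.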

Additional observations from a re-analysis of the deposited data

Results flagged for a closer look

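Single arrays stood apart from their group in 15 of the 180 groups of 5 arrays examined over 60 named genes, and chance marks about 1 in 20. Bleomycin gapmer 3 replicate 1 was lowest for Krt5 (8.11, next 11.16), Krt15 (7.83, next 10.47) and Krt14 (7.03, next 8.39), and highest for Scgb1a1 (18.25). Bleomycin gapmer 3 replicate 3 was lowest for Tnc (6.72), Ccl2 (9.0), Top2a (8.33) and Cd3d (9.6, next 9.96). Bleomycin control replicate 5 was highest for Cidec (11.1) and lowest for Laptm5 (11.48) and Krt14 (7.35, next 10.64). Bleomycin gapmer 1 replicate 4 was highest for Clca1 (14.0, next 10.78), replicate 1 lowest for Fabp4 (12.87), replicate 2 highest for Dnm3 (8.46) and replicate 5 lowest for Tgfb1 (9.96).

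The change in response differed between the gapmers for 2 genes in the direct test, gapmer 3 minus gapmer 1. For Ptprs the difference was 0.58 (limma adjusted p = 0.00289), from 0.46 with gapmer 3 and -0.12 with gapmer 1. For Spag11b it was -2.04 (limma adjusted p = 4.27e-06), from -1.19 with gapmer 3 and 0.85 with gapmer 1. Their pooled changes, 0.17 and -0.17, were not called (limma adjusted p = 0.111 and 0.55).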

How the results depend on the processing

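Of 46 named genes with a called change, 21 kept the call in all 37 alternatives, 25 lost it in at least 1 and 0 reversed. Signs turned for uncalled values only, Dnm3 at -0.004 without PBS control replicate 1 and -0.018 with the adipose covariate, Sftpc at 0.016 without bleomycin control replicate 3 and Scgb1a1 at 0.001 with the adipose covariate. Array weights gave 3386 changed responses (2162 higher, 1224 lower), 5550 differences in bleomycin mice, 125 in PBS mice, 3251 and 1763 changes with gapmers 1 and 3 alone, and 8 between them. The adipose covariate gave 715 (423 higher, 292 lower), 0 in PBS mice, and 858 and 102 with gapmers 1 and 3. Differences in PBS mice were 56 without dim genes, 270 with the skeletal muscle covariate, 60 with the position trend removed and 182 with the replicate block. Gapmer 3 alone gave 641 (301 higher, 340 lower), with 287 under the RNA integrity covariate, 423 under the muscle covariate and 1115 with the replicate block. Under the replicate block the pooled count was 2610. The cause of each was not tested.

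Leaving out 1 array gave 1073 to 2861 changed responses (607 to 1811 higher, 455 to 1083 lower), 2147 to 4011 differences in bleomycin mice, 0 to 409 in PBS mice, 802 to 2574 and 246 to 1161 changes with gapmers 1 and 3, and 2 to 12 between them. The lowest pooled counts came without PBS control replicate 3 or 1 and without bleomycin control replicate 2 (1283). For Dnm3os the difference was -0.672 to -0.57 in bleomycin and -0.396 to -0.304 in PBS mice, and its other features gave -0.048 in bleomycin mice and -0.077 and -0.054 in PBS mice. Dnm3 ranged from -0.004 to 0.218 and Sftpc from -0.059 to 0.016. Levels under 6.11 limit the folds of dim genes, and Sftpc and Scgb1a1 lay near the top of the scale, where a change cannot be read.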

Other observations

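The genes in this section were picked after their values were seen. The 2 cytokine genes with a higher response were Il33, an alarmin of barrier and alveolar type 2 cells in mice (0.69, SE 0.11), and Tslp, an epithelial cytokine that acts on dendritic cells (0.55, SE 0.13), both with limma adjusted p of 0.0102 or less. In bleomycin mice Il33 was 0.42 higher with gapmers than with control. Il11, a cytokine that acts on fibroblasts, and Ccl17, a ligand of the chemokine receptor Ccr4, had lower responses (-0.89 and -0.87), mainly in the bleomycin groups. Other genes with higher responses included Fbln1, a matrix fibulin (0.70, SE 0.15), the angiopoietin receptor gene Tek (0.42, SE 0.11) and Sox17, a transcription factor of arterial endothelium (0.73, SE 0.12).

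Of genes called between gapmers and control in PBS mice, Itgb2, the integrin chain of leukocytes, was higher (0.48, limma adjusted p = 0.019), with a bleomycin difference of -0.03. The stem cell receptor gene Lgr5 was lower in PBS mice (-0.43, limma adjusted p = 0.0224), and so were Ak4, a mitochondrial adenylate kinase gene (-0.56), and Ptger3, a prostaglandin receptor gene (-0.81). The changes in response of Lgr5, Ak4 and Ptger3 were 0.44, 0.89 and 0.72. No gene was called in PBS mice without PBS control replicate 3 or with the adipose covariate, so these PBS calls depend on that array.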
